A study of Homo sapiens with 6 samples.

Results

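The regions described here are the non-overlapping 1-kb windows that lie within 2 Mb of the first or last CpG called on each autosome of GRCh37. The start of chromosome 7 was not included. Of 2663055 autosomal windows that hold a CpG, 83134 met this definition, and 69842 of these had 10 or more methylation calls in each library, out of 1976624 such windows on all autosomes. They belong to 43 chromosome ends. At 5 of them, the starts of the acrocentric chromosomes 13, 14, 15, 21 and 22, the assembled sequence begins at a large assembly gap rather than at a telomere, so these were also described separately and the other 38 ends were taken alone where stated.

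Whole-genome bisulfite sequencing was performed with the human embryonic stem cell line H9, with 3 libraries of Conventional and 3 of Reset cells. Conventional cells were grown in medium with 10 ng/ml bFGF and 20% KSR. Reset cells had passed through expression of NANOG and KLF2 transgenes, induced with doxycycline, and were then maintained without induction in t2iL+Gö, which holds LIF, 1 μM CHIR99021, 1 μM PD0325901 and 5 μM Gö6983. Both were kept on mouse embryonic fibroblast feeders at 5% oxygen. All libraries come from this 1 line. The libraries of a state are described in the study as biological replicates, and the labels do not say whether they were separate cultures or separate resettings. The libraries held 92023996 to 98004161 calls in Conventional and 70329213 to 80199615 in Reset cells. The median subtelomeric window had 53 to 58 calls in the Conventional and 42 to 48 in the Reset libraries, against 33 to 35 and 24 to 28 in windows more than 10 Mb from both ends, which are called interior here.

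Subtelomeres lie between the TTAGGG repeats of the telomere and the unique sequence of the chromosome arm. In human they are gene-rich and GC-rich on many arms, hold segmental duplications that are shared between chromosome ends, and in their last kilobases carry CpG-rich repeats from which the telomeric RNA TERRA is transcribed. Methylation of CpG cytosines in that sequence is placed largely by the DNA methyltransferases DNMT3A and DNMT3B and copied at replication by DNMT1, and its absence in patients with DNMT3B mutations is a known feature of the ICF syndrome.

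The sequences below show the kinds of windows on which the results turn. They were read from the GRCh37 forward strand, and each is the 200-base stretch of its window with the most CpGs, which stand in capitals, outside annotated untranslated regions. The first 4 come from CpG-dense windows within 2 kb of an end of chromosomes 4, 15, 19 and 9, and all of these windows were over 95% methylated in Conventional cells and under 2% in Reset cells.
chr4:11117-11316: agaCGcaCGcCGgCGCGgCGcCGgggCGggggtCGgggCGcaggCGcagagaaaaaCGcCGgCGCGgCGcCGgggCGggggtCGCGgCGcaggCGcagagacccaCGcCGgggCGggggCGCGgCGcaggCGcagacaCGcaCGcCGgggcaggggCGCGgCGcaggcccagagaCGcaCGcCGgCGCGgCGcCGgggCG
chr15:102520276-102520475: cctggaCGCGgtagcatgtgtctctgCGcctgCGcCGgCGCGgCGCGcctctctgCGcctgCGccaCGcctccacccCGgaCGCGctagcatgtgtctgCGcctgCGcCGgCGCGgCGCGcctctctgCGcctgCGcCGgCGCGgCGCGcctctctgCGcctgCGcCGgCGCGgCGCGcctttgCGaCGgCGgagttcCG
chr19:59118231-59118430: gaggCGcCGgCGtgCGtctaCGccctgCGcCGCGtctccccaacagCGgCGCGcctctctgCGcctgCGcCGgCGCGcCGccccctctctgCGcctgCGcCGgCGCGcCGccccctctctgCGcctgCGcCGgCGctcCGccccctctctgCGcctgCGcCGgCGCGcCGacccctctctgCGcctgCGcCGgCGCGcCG
chr9:11001-11200: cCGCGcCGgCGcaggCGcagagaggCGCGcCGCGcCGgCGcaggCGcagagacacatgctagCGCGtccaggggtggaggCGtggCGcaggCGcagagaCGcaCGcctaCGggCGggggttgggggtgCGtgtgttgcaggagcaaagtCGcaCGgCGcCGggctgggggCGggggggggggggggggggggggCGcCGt
The 4 stretches hold 43, 40, 40 and 29 CpGs. A CpG-dense window near the end of chromosome 20 had little methylation in either state, and its stretch holds 27 CpGs.
chr20:62959314-62959513: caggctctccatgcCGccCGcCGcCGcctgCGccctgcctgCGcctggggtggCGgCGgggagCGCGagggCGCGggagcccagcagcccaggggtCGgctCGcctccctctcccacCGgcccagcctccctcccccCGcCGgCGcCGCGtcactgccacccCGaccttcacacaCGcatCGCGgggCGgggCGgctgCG
The last 3 stretches come from windows that are described further on, chosen among those that passed the test between the states. They had the largest fall (an intron of CNTN6), the largest rise (coding sequence of IRX4) and the highest remaining level (coding sequence of TYMS).
chr3:1362500-1362699: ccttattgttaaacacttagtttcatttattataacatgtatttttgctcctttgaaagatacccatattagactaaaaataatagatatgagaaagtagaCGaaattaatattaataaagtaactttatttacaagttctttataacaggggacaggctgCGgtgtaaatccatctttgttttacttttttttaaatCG
chr5:1881762-1881961: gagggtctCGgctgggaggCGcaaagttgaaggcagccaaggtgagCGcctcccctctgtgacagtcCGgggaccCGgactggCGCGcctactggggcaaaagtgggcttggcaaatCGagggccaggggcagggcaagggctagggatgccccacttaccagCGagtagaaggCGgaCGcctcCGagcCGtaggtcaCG
chr18:662183-662382: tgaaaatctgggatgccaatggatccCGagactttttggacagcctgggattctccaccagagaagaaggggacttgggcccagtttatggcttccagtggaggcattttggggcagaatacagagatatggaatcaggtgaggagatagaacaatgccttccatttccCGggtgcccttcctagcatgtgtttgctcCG

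Subtelomeric windows lost most of their methylation in Reset cells, and lost a smaller share of it than the interior. Their mean level was 84.3%, 84.4% and 84.3% in the 3 Conventional libraries and 33.5%, 34.4% and 34.6% in the 3 Reset libraries. The states did not overlap, and the Reset mean of 34.2% ± 0.582 (SD, n = 3) was 40.5% of the Conventional mean of 84.4% ± 0.0784. The interior went from 87.9% ± 0.0783 to 29.5% ± 0.605, which is 33.6% of the Conventional level. In a two-sided exact permutation test over the libraries, 3 against 3, the fall of the subtelomeric level gave p = 0.1, the smallest value this design allows here and in each later exact test between the states.

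The subtelomeric windows differ from the interior in their makeup. The median window held 18 CpGs against 8, 57.0% against 50.5% of windows overlapped a protein-coding gene, and 10.6% against 1.56% held 41 or more CpGs. Each window was therefore compared with the mean level of the interior windows that have the same number of CpGs in the same library, with 60 or more pooled. The difference is called the matched gap. Interior windows matched in this way averaged 80.5% in Conventional and 31.04% in Reset cells. The matched gap of the subtelomeric windows was +3.90 ± 0.0237 percentage points in Conventional and +3.12 ± 0.0686 points in Reset cells (SD, n = 3), and it was positive in all 6 libraries. Within a state, the smallest p that an exact sign-flip test over 3 libraries can give is 0.25, and that was its value in both states. The gap was 0.781 points smaller in Reset cells (exact permutation p = 0.1). This direction depends on the scale, since on the log2 ratio of the level to the matched interior level the gap was 0.0698 larger in Reset cells, and without matching it was 8.21 points larger.

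Excluding the 5 acrocentric starts made the gap larger in both states, at +5.07 and then +3.71 points over the 38 other ends. The acrocentric starts stood below the matched interior in both, by −12.1 points in Conventional and −4.98 points in Reset cells, with mean levels of 74.3% and 25.1%. In 14.8% of their windows, against 0.418% in the other ends, at least 1 library had over 3 times its median number of calls per CpG. Leaving out all windows of such depth changed neither the direction nor the call of the 10 named ends below.

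The surplus over the interior was carried by the CpG-dense windows. In windows with 41 or more CpGs, the mean level was 65.7% in the subtelomeres and 27.5% in the interior of Conventional cells, and 32.0% and 13.7% in Reset cells. Of these dense windows, 61.3% of the subtelomeric and 20.4% of the interior ones were at 80% or more in Conventional cells, and 22.7% and 65.6% were under 20%. In windows with 21 to 40 CpGs the levels were 87.7% and 83.8% in Conventional and 39.8% and 35.3% in Reset cells. Sparse windows went the other way. Windows with 1 to 5 CpGs averaged 80.2% in the subtelomeres against 89.1% in the interior of Conventional cells, and 22.1% against 23.3% in Reset cells. These classes include the acrocentric starts, whose median window held 10 CpGs against 19 at the other ends. The classes were not taken without them. In the subtelomeres the Reset level rose with the number of CpGs up to the class of 21 to 40, while the interior was at 35.5% in the class of 11 to 20 and at 35.3% in that of 21 to 40.

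**Figure D1:**
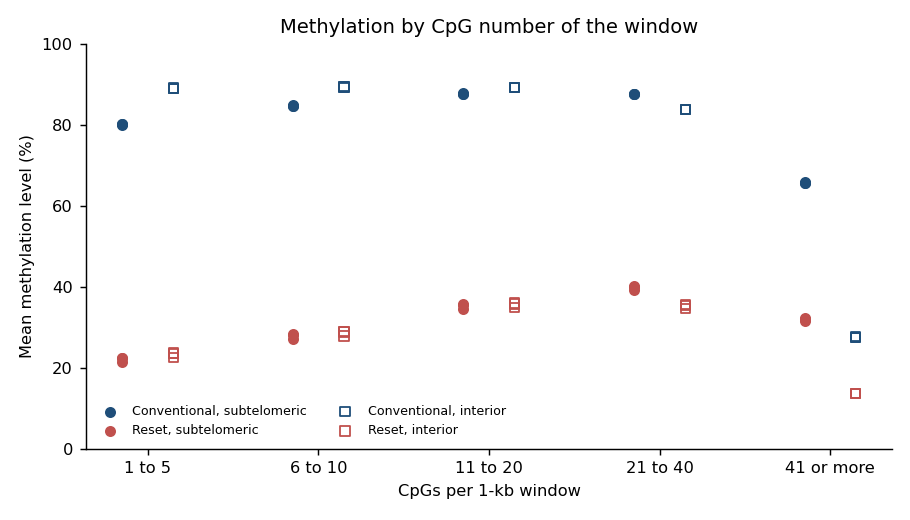
Mean methylation level (%) of 1-kb windows by the number of CpGs in the window, with 1 point per library, filled for subtelomeric and open for interior windows, in blue for Conventional and red for Reset cells. In the class of 41 or more CpGs the subtelomeric points lie at 65.7% and 32.0% and the interior points at 27.5% and 13.7%, while in the sparsest class the Conventional subtelomeric points lie below the interior. The acrocentric starts are included.

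Among windows that were at 80% or more in Conventional cells, the subtelomeric ones had the higher mean level in Reset cells. The 56009 subtelomeric windows of this kind went from 91.4% to 37.6%, and the 1421021 interior ones from 91.9% to 30.8%. For those with 41 or more CpGs the Reset levels were 43.6%, 44.4% and 44.6% in the subtelomeres and 38.2%, 38.7% and 38.9% in the interior. These Reset levels do not overlap; no test was run between window sets of the same libraries. Restricting both sets to windows at 80% or more, an alternative chosen after seeing the data, gave a matched gap of +1.75 points in Reset cells over all distances, but −0.522 points in the first 100 kb. By position relative to genes, the gap was +7.52 points in Conventional and +6.17 points in Reset cells for subtelomeric windows in the body of a protein-coding gene, and −0.902 and −0.930 points outside gene bodies. The interior was split in the same direction, with gaps of +0.290 and +1.73 points in gene bodies and −0.297 and −1.77 points outside them. Outside gene bodies the mean level was 82.7% in the subtelomeres and 88.2% in the interior of Conventional cells, and 30.4% and 27.4% in Reset cells.

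The matched gap was not even along the 2 Mb. Over the 38 ends without the acrocentric starts it was −1.93 points in Conventional and −0.950 points in Reset cells in the first 100 kb, +3.17 and +3.64 points from 100 to 500 kb, +6.29 and +5.12 points from 500 to 1000 kb, and +5.54 and +3.28 points from 1000 to 2000 kb. The difference between the states gave an exact permutation p = 0.1 in each of the 4 classes, also after adjustment over the 4. The direction of this difference was the same in each class with the acrocentric starts included. The alternatives given next were run on that set of 43 ends, where the direction depends on the setting in every class. From 100 to 500 kb it reversed with a minimum of 20 or 30 calls, with calls pooled and when GC content was matched as well, and in both classes beyond 500 kb it reversed on the log2 scale and without matching. Without the acrocentric starts, the matched gap became smaller further inside. It was +3.09 and +2.39 points from 2 to 3 Mb, +1.33 and +0.901 points from 3 to 5 Mb, and +0.311 and +0.00149 points from 5 to 10 Mb. The signs of the first 100 kb depend on the weights of the windows and on the minimum of calls. With calls pooled, and the acrocentric starts included, the gap there was +5.47 points in Conventional and +0.142 points in Reset cells, against −3.84 and −1.74 points with equal weights, and with a minimum of 30 calls it was +3.92 and +1.19 points.

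**Figure D2:**
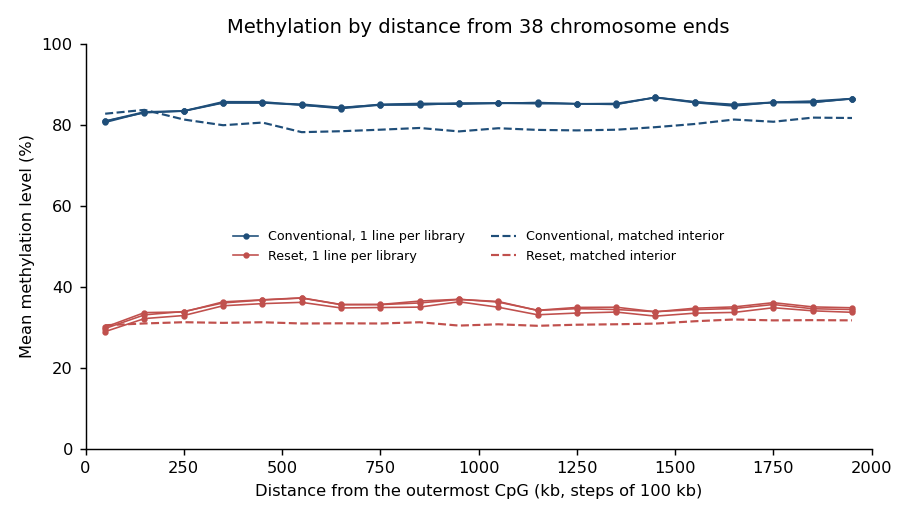
Mean methylation level (%) in 100-kb steps from the outermost CpG over the 38 ends without acrocentric starts, with 1 line per library (solid) and the level of interior windows with equal CpG number (dashed). Conventional libraries (blue) stay above 80% and Reset libraries (red) between 28.9% in the first step and 37.3%, both above the dashed lines from 200 kb inward.

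The outermost 10 kb differed from the rest of the subtelomere in Reset cells. This distance was chosen after the values were seen, so no test is given for it. It held 123 windows at 24 ends, with levels of 79.0%, 79.0% and 79.6% in Conventional and 14.7%, 16.7% and 18.1% in Reset cells. The mean Reset level was 20.8% of the Conventional level, while the matched interior went from 75.6% to 27.4%. The matched gap thus changed from +3.63 ± 0.430 points in Conventional to −10.9 ± 1.19 points in Reset cells. From 10 to 50 kb the level went from 79.5% to 27.9%, and from 50 to 100 kb from 81.8% to 32.1%.

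At 16 of the 38 ends the assembled sequence ends in the telomere repeat, taken as 10 or more copies of TTAGGG on either strand in its last 1000 bases. In the outermost 5 kb of these ends, 45 windows at 15 ends averaged 81.9% in Conventional and 8.98% in Reset cells, which is 11.0% of the Conventional level. The corresponding 31 windows at 9 of the other 22 ends averaged 78.03% and 19.6%. These sets differ in CpG number, with a median of 31 per window at the repeat-bearing and 11 at the other ends. Relative to interior windows of equal CpG number, with 60 or more pooled, the gap went from +25.1 to −12.9 points at the repeat-bearing ends. At the other ends it went from −8.42 to −11.5 points. Levels rose inward at the repeat-bearing ends in Reset cells, from 21.5% at 5 to 10 kb and 20.7% at 10 to 20 kb to 30.6% at 20 to 50 kb and 33.0% at 50 to 100 kb.

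The CpG-dense windows of the outermost 10 kb, such as those whose sequences are printed above, were nearly free of methylation in Reset cells. There were 22 windows with 41 or more CpGs, at 14 ends. Of these, 16 windows at 12 ends were at 80% or more in Conventional cells, and these averaged 94.5%, 95.7% and 95.2% in the Conventional and 2.35%, 4.91% and 3.31% in the Reset libraries. The mean Reset level of each of the 16 was under 10%. Interior windows with 41 or more CpGs and the same minimum in Conventional cells averaged 38.6% in Reset cells, with 11.7% of 5132 windows under 10%. As the outer windows hold up to 195 CpGs, interior windows with 100 or more CpGs were also taken, a comparison chosen after seeing the data, and these averaged 33.01%, with 26.2% of 80 under 10%. Subtelomeric windows from 10 kb to 2 Mb averaged 44.9%, with 2.502% of 4397 under 10%.

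The window chr4:11001-12000, which has 148 CpGs and no annotated gene, was at 98.1%, 99.7% and 98.6% in Conventional and at 0%, 0% and 0.885% in Reset cells, on 70 to 347 calls per library. The window chr15:102520001-102521000 with 110 CpGs went from 96.8% to 0.606%, chr19:59118001-59119000 with 126 CpGs from 97.9% to 1.46%, and chr9:11001-12000 with 63 CpGs from 95.9% to 1.85%. The window at the other end of chromosome 4, chr4:191042001-191043000, had 195 CpGs and went from 98.8% to 6.54%. The 2 windows at the start of chromosome 18, both in the long non-coding RNA gene LINC02564, went from 65.7% to 4.28% and from 79.0% to 20.4%. The latter was the only dense window of the outermost 10 kb whose mean Reset level stayed above 10%. Single Reset libraries were above 10% in some other windows, up to 16.7% in chr21:48119001-48120000. At the end of chromosome 20, chr20:62959001-62960000, 5.48 kb from the last CpG and over a processed pseudogene, was at 2.28% in Conventional and 3.37% in Reset cells.

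Much of this outermost sequence is repeated between ends. Between 0% and 85.4% of the 31-base words of a dense window occurred in the dense outer windows of other ends, and in 8 of the 22 windows it was 50% or more. Whether each read came from the end it was assigned to was not tested. The 11 highly methylated dense windows with under 50% of shared words averaged 94.8% in Conventional and 3.16% in Reset cells. Words were sought only among these 22 windows, so a low share does not show that a sequence is unique in the genome. The 14 windows with 30 or more calls in every library went from 95.1% to 3.73%. None of the 22 exceeded 3 times the library median of calls per CpG, a limit that does not compare the states. Some windows had far fewer calls in Reset cells. The window chr4:191042001-191043000 had 1197 to 1797 calls in Conventional and 210 to 664 in Reset libraries. For chr19:59118001-59119000 these were 132 to 247 and 31 to 62. Others, such as chr10:135523001-135524000, had no such fall in calls. Whether the difference in calls bears on the levels was not tested.

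**Figure D3:**
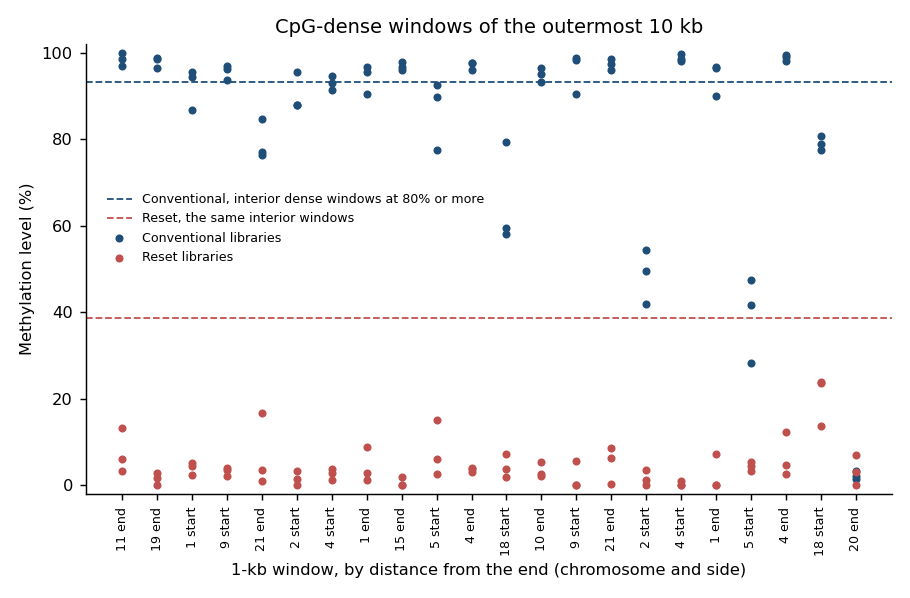
Methylation level (%) of the 22 windows with 41 or more CpGs in the outermost 10 kb, ordered by distance from the end, with 1 point per library in blue for Conventional and red for Reset cells. Dashed lines give the mean of interior windows with 41 or more CpGs and 80% or more methylation in Conventional cells, 93.2% and 38.6%, and every Reset point lies below the lower line.

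Windows that hold the telomere repeat itself, with 5 or more copies of TTAGGG on either strand, also occur further inside and lost most of their methylation. The 113 such windows of the whole 2 Mb were at 85.4%, 84.5% and 85.1% in Conventional and at 30.9%, 32.0% and 33.3% in Reset cells, and the 238 interior ones averaged 86.4% and 31.4%. The subtelomeric ones stood 11.1 points above the matched interior in Conventional and 3.13 points above it in Reset cells. Such windows are 0.162% of the subtelomeric and 0.0148% of the interior windows tested.

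The 43 ends differed from each other by more than their libraries did. The autosomes were divided into 1376 blocks of 2 Mb counted from both ends inward, and the matched gap of each block was compared between the states with limma at a Benjamini-Hochberg adjusted p of 0.05. Nearly every block was called, 51.5% with a higher and 44.4% with a lower gap in Reset cells. Among the ends, 19 had a higher and 22 a lower gap, and among the 38 non-acrocentric ends 14 and 22. The gap was above 0 at 31 of the 38 ends in Conventional and at 29 in Reset cells. Of all 1376 blocks, 866 had a gap above 0 in Conventional and 720 in Reset cells. The change at the 43 ends ranged from −17.3 to +8.85 points, within the range of −18.5 to +17.9 points over all blocks. On the log2 scale the number of ends with a lower gap was 14 in place of 22, and without matching it was 3. The number with a higher gap was 40 without matching, 12 and 5 with a minimum of 20 and 30 calls, and 9 with calls pooled, in place of 19. The shares over all blocks under these alternatives are not given here.

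The start of chromosome 3 changed most among the 43 ends, and only 4 of the other 1375 blocks had a more negative change. Its level was 89.3%, 89.5% and 89.2% in the Conventional and 10.8%, 11.2% and 11.5% in the Reset libraries. Reset cells thus kept 12.5% of the Conventional level there, and the next lowest end, the start of chromosome 21, kept 24.5%. The matched gap fell by 17.3 points (SE 0.171, limma adjusted p = 1.02e-16), from +0.471 to −16.8 points. The low level was found along the whole stretch, and in all 20 steps of 100 kb the Reset level was below the matched interior level, with a median of 9.63% and a range of 7.04% to 23.8%, against 26.9% to 29.5% for the matched interior. It extended into the next 2 Mb, where 19 of 20 steps were below the matched level, with a median of 16.1%. The 2 Mb are CpG-poor, with a mean of 8.24 CpGs per window. They hold 2 protein-coding genes, CHL1 and CNTN6, which encode neural cell adhesion molecules. The promoter of CNTN6 went from 85.1% ± 4.78 to 23.2% ± 12.3 and that of CHL1 from 17.4% ± 3.88 to 5.99% ± 1.27 (SD, n = 3). Coverage of this end in Reset relative to Conventional cells, each scaled to its library, was 0.874, the lowest of the 43 ends. Its mean CpG number per window was also the lowest, and across the 38 non-acrocentric ends the coverage ratio rose with that number (Pearson's r = 0.872). Copy number was not tested. Without this end the matched gap over all windows was +3.96 points in Conventional and +3.49 points in Reset cells.

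**Figure D4:**
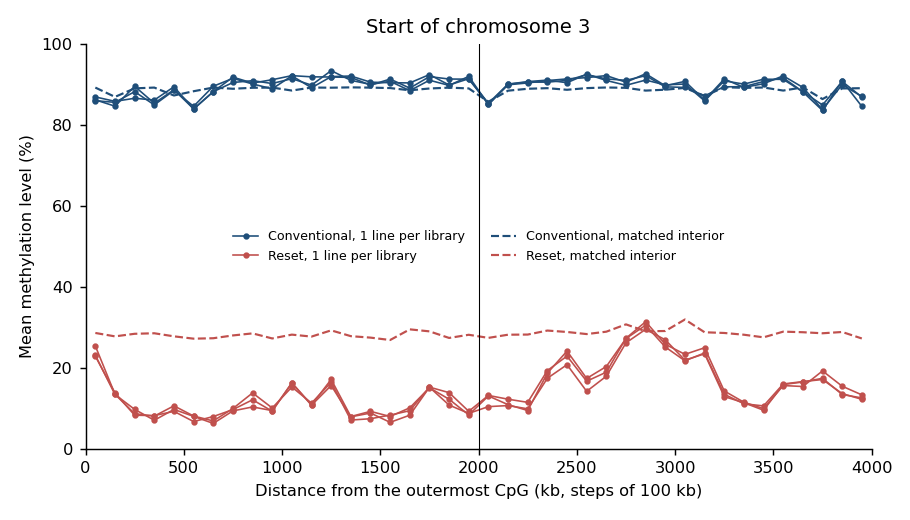
Mean methylation level (%) in 100-kb steps over the first 4 Mb of chromosome 3, with 1 line per library (solid, blue for Conventional and red for Reset cells) and the level of interior windows with equal CpG number (dashed). The vertical line marks the 2 Mb of the definition, inside which the Reset libraries lie below the dashed line in all 20 steps.

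The other ends with the largest decreases held more CpGs per window than the start of chromosome 3. The gap went from +16.6 to +6.74 points at the start of chromosome 19 (change −9.88, SE 0.226, limma adjusted p = 6.81e-14), from +14.5 to +7.41 points at the start of chromosome 1 (−7.12), from +15.7 to +9.26 points at the start of chromosome 16 (−6.48) and from +5.42 to +0.223 points at the start of chromosome 8 (−5.20). The first 3 of these had the highest matched gaps of all ends in Conventional cells and stayed above the matched interior in Reset cells, with Reset levels of 33.7%, 35.9% and 38.1%. On the log2 scale the starts of chromosomes 1 and 16 reversed, with +0.0530 and +0.102, and the call at the start of chromosome 19 was lost. Without matching all 4 turned to increases, of +12.6 points at the start of chromosome 19, +12.2 at that of chromosome 1, +12.7 at that of chromosome 16 and +3.74 at that of chromosome 8.

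The largest increases were at acrocentric starts and at the start of chromosome 12. The gap went from −7.07 to +1.79 points at the start of chromosome 13 (change +8.85, SE 0.201, limma adjusted p = 6.52e-14), from −20.8 to −12.6 points at that of chromosome 21 (+8.22), from −13.9 to −7.00 points at that of chromosome 14 (+6.89) and from −8.15 to −2.20 points at that of chromosome 22 (+5.95). The acrocentric start of chromosome 21 had 3.66 times the coverage of the whole library in Conventional and 3.78 times in Reset cells, and with calls pooled its change was −23.8 points instead, and −0.00529 points with a minimum of 30 calls. The change at the start of chromosome 22 was −3.16 points with a minimum of 30 calls and −1.48 points with calls pooled, and that at the start of chromosome 14 was −0.151 on the log2 scale and +0.177 points, with no call (limma adjusted p = 0.412), with a minimum of 30 calls. At the start of chromosome 12 the gap rose from +0.394 to +5.86 points (+5.46), with levels of 87.0% and 38.2%, the largest increase among the non-acrocentric ends. The ends that kept the largest share of their methylation were the end of chromosome 21 (48.5%), the start of chromosome 5 (47.9%) and the end of chromosome 13 (47.8%).

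**Figure D5:**
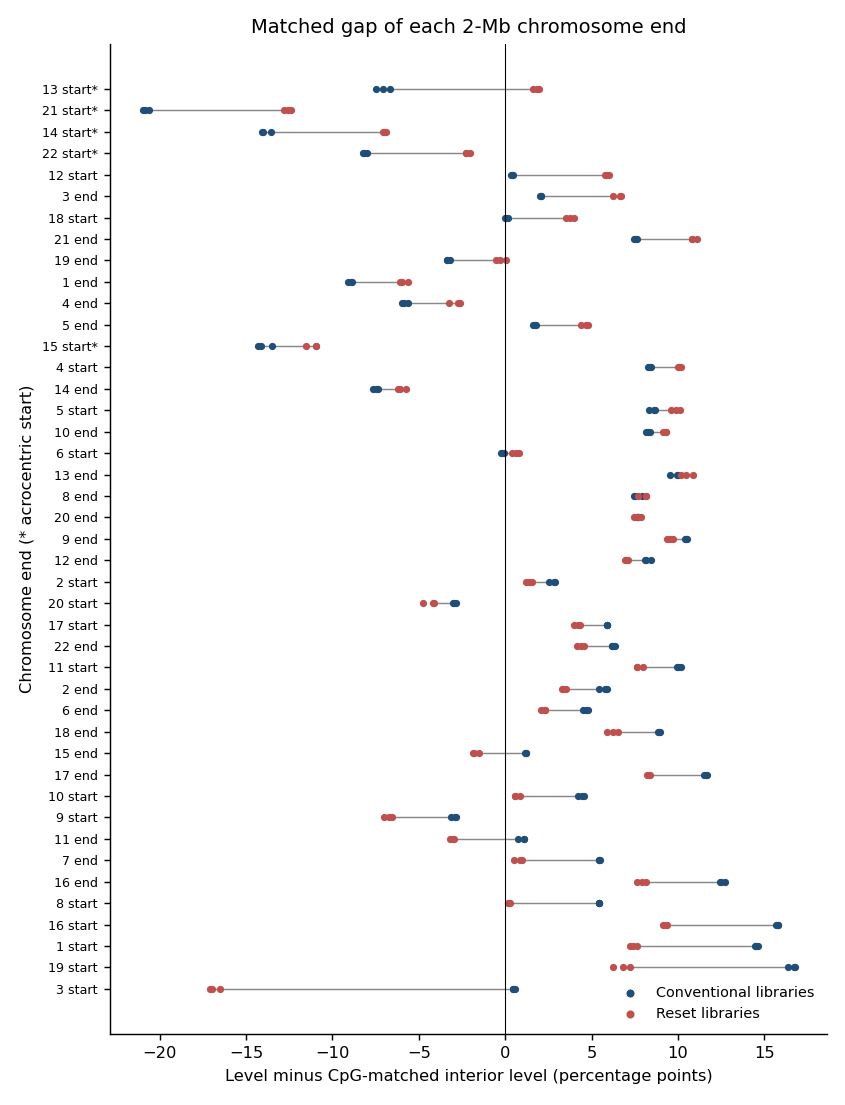
Matched gap (percentage points) of the first and last 2 Mb of each autosome, ordered by its change, with 1 point per library in blue for Conventional and red for Reset cells and asterisks at acrocentric starts. The start of chromosome 3 stands apart at the bottom, with Conventional points near +0.471 and Reset points near −16.8, while the blue points of the starts of chromosomes 19, 1 and 16 lie farthest to the right.

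Across the 38 non-acrocentric ends the Reset level was higher where windows held more CpGs (Pearson's r = 0.662, Spearman's rho = 0.688, given as a description). The ends share their libraries, and the coverage ratio of Reset to Conventional cells also rose with the mean CpG number (r = 0.872, rho = 0.875). The change of the matched gap had r = −0.197 with the CpG number and r = 0.104 with the coverage ratio.

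Tested singly with a quasi-binomial model on the calls, in which limma was used to moderate the dispersion, 67858 of the 69842 subtelomeric windows (97.2%) were lower in Reset cells at an adjusted p of 0.05, against 98.3% of all autosomal windows. A higher level was called in 496 windows, 0.710% against 0.429% of all windows, and in 401 windows every Reset library was above every Conventional library, 0.574% against 0.391%. Every Reset library was below every Conventional library in 67394 windows, 96.5% against 97.9% of all. Windows at 50% or more in Conventional cells whose Reset level was at least 80% of that numbered 202, or 0.307% of 65781, against 0.135% of all such autosomal windows. The end of chromosome 10 held 18 of them, the end of chromosome 20 held 17, the end of chromosome 21 held 12 and the start of chromosome 4 held 11. Called windows that rose by 10 points or more with no overlap between the libraries numbered 278 (0.398% against 0.253%), and the start of chromosome 6 had 23, the end of chromosome 21 had 19 and the start of chromosome 9 had 18. The dense windows make up more of the subtelomeres than of the genome. Within the class of 41 or more CpGs such rises were found in 2.42% of subtelomeric and 6.27% of interior windows. Fewer of these subtelomeric windows started low, as 22.7% were under 20% in Conventional cells, against 65.6% in the interior. Rises among the low windows alone were not counted. Of the dense windows at 50% or more in Conventional cells, 0.871% of subtelomeric and 1.40% of interior ones kept their level.

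Among the largest falls were the window chr4:11001-12000 described above, 2 windows of CNTN6 and a window near the end of chromosome 19. The intronic CNTN6 window chr3:1362001-1363000, whose sequence has few CpGs, went from 97.1%, 100% and 100% to 0% in all 3 Reset libraries, on 10 to 35 calls. The second CNTN6 window, chr3:1205001-1206000, also intronic, went from 98.9% to 1.19%. The window chr19:58545001-58546000, with 114 CpGs over untranslated exon sequence of the zinc finger gene ZSCAN1, went from 97.9% to 0.167%.

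The 5 largest rises were in windows with little methylation in Conventional cells. Coding sequence of IRX4, a homeobox transcription factor of the heart, rose from 0%, 5.41% and 3.70% to 60.5%, 62.0% and 72.9% in chr5:1881001-1882000 (adjusted p = 2.27e-30, quasi-binomial test with limma dispersion). A TSPEAR intron in chr21:46126001-46127000 rose from 2.39% to 61.6%, the untranslated region of GPR132, a G protein-coupled receptor, in chr14:105522001-105523000 from 9.28% to 67.6%, and that of SPATC1L in chr21:47604001-47605000 from 1.16% to 54.0%. The intergenic window chr9:971001-972000, 1911 bases from DMRT1, rose from 0.875% to 57.7%.

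Remaining levels were ranked among called windows with no overlap between the libraries and 50% or more in Conventional cells. The 5 highest Reset levels of this set were in coding sequence and introns. Windows without a call were not ranked and may lie higher. The window chr18:662001-663000, in the coding sequence of TYMS (thymidylate synthase), went from 100% in every Conventional library to 92.3%, 92.3% and 90%, on 10 to 23 calls (adjusted p = 0.0275, quasi-binomial test with limma dispersion), and its call was lost without Conventional replicate 2 (0.0559) or 3 (0.0573). Coding sequence of PLEC, which encodes the cytolinker plectin, kept 79.8% ± 5.75 in chr8:144998001-144999000 and 79.6% ± 7.94 in chr8:144996001-144997000, from 97.4% and 96.8%, on 197 to 422 and 78 to 177 calls. Coding sequence of ZNF551 in chr19:58197001-58198000 was at 80% from an initial 93.6%, and an intron of the adiponectin receptor gene ADIPOR2 in chr12:1824001-1825000 was at 79.1% from 92.2%. The call for ZNF551 was lost without Reset replicate 1 (adjusted p = 0.0529), and that for ADIPOR2 without Conventional replicate 1 (0.118) or Reset replicate 1 (0.0558).

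Most promoters near the ends were lower in Reset cells, in shares close to those over all autosomal promoters, which include them; the difference between the shares was not tested. Of 1252 subtelomeric promoters of protein-coding genes, each defined as the 1000 bp before and the 500 bp after the transcription start, 836 were lower in Reset cells (66.8%, against 66.6% of 18551 autosomal promoters), 48 were higher (3.83% against 4.10%) and 368 were not called. The median difference was −8.47 points, against −8.98 points over all promoters. Within 500 bp on either side of the start, 445 of 1234 were lower (36.1%, against 37.9% of all promoters) and 60 higher (4.86% against 4.50%). Of 59 listed genes whose promoter was called, 24 lost the call in the shorter region, and 20 of these 24 were falls.

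The genes of development and pluripotency had little promoter methylation in Conventional cells, where 24 of the 27 tested of 28 listed were under 20%, against 59.7% of all subtelomeric and 59.1% of all autosomal promoters. In this list 9 promoters were lower, 5 higher and 13 not called, with a median difference of −0.569 points. Thus 33.3% were lower and 18.5% higher, against 66.6% and 4.10% of all autosomal promoters. The promoter of DMRT1, at chr9:840697-842197, a regulator of gonadal and germ cell development, rose from 2.89%, 7.36% and 3.50% to 28.8%, 33.1% and 38.6% (adjusted p = 1.64e-06, quasi-binomial test with limma dispersion). That of its neighbour DMRT3 rose from 0.926% ± 0.813 to 14.6% ± 9.60, and that of DLL1, a Notch ligand, from 0.662% ± 0.574 to 18.5% ± 2.85. FOXF2 rose from 2.73% to 6.37% and IRX4 from 0.666% to 2.84%, and both calls were lost within 500 bp of the start. RTEL1, a helicase that maintains telomeres, fell from 14.01% ± 1.18 to 2.78% ± 1.35, and NKD2, an inhibitor of Wnt signalling, from 29.2% to 8.33%, a call that was lost within 500 bp of the start. TERT, the catalytic subunit of telomerase, fell from 14.6% ± 1.201 to 8.34% ± 1.41 (adjusted p = 0.00669), but stood 2.32 points higher, with no call, within 500 bp of its start. UTF1, a chromatin factor of pluripotent cells, fell from 10.7% to 3.35%, TRIM28, the co-repressor of KRAB zinc finger proteins, from 14.6% to 2.40%, SOX18 from 13.6% to 7.81%, KDM5A from 6.33% to 1.66%, EHMT1 from 3.79% to 1.43% and PRMT2 from 3.36% to 0.887%. The calls of these 6 genes were lost within 500 bp of the start, and those of UTF1, SOX18, KDM5A, EHMT1, FOXF2 and IRX4 also when 1 library was left out.

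In a list named for subtelomeric duplication families, 15 of the 27 genes were tested. DUX4 and the listed OR4F and WASH genes were not among them. Of the 15 promoters, 11 were lower, 2 were higher and 2 were not called, with a median difference of −29.7 points. Of those tested, 73.3% were lower and 13.3% higher, against 66.6% and 4.10% of all autosomal promoters. Where genes of this list have near-identical copies, reads may be assigned to the wrong copy. Similarity between gene copies was not measured. The zinc finger gene ZNF595 at chr4:52215-53715 went from 80.6%, 80.2% and 83.7% to 8.21%, 8.71% and 7.96%. DUSP22, a dual specificity phosphatase, fell from 35.2% ± 15.3 to 2.06% ± 0.826, FRG1 from 38.03% to 8.30% and the tubulin gene TUBB8 from 80.4% to 42.3%. SCGB1C1 and ODF3 at the start of chromosome 11 fell from 80.3% to 30.3% and from 87.2% to 30.1%. FRG2, FRG2B, DOCK8, ZNF718 and ZNF721 were also lower, though the calls for DOCK8 and ZNF721 were lost within 500 bp of the start and that for FRG2 when 1 library was left out. The forkhead gene FOXD4 at chr9:117917-119417 rose from 14.3%, 6.76% and 6.19% to 52.9%, 50% and 50%, and FAM110C from 6.16% ± 1.96 to 21.6% ± 3.39, with no overlap between the states for either.

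In the alpha globin cluster at the start of chromosome 16, which holds the embryonic and adult alpha-like genes and the housekeeping genes around them, 10 of 11 promoters were tested, 8 were lower, none was higher and 2 were not called, with a median difference of −13.7 points. The lower ones were 80% of those tested, while of all autosomal promoters 66.6% were lower and 4.10% higher. HBZ, the embryonic zeta globin, at chr16:201643-203143, went from 93.7%, 85.1% and 95.6% to 32.9%, 31.9% and 37.97%. NPRL3, whose introns hold the enhancers of the cluster, fell from 22.9% ± 6.498 to 1.96% ± 0.625, LUC7L from 43.9% ± 15.6 to 4.27% ± 1.55 and HBQ1 from 31.4% ± 3.83 to 15.5% ± 0.627. POLR3K, SNRNP25, MPG and RHBDF1 were also lower, from Conventional levels of 4.95% to 24.4%, but the calls for POLR3K, MPG and RHBDF1 were lost within 500 bp of the start, and that for MPG also when 1 library was left out.

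Of 43 neural and metabolic genes near ends, 19 promoters were lower, 5 higher and 19 not called, with a median difference of −2.04 points. These shares of 44.2% lower and 11.6% higher compare with 66.6% and 4.10% of all autosomal promoters. SLC6A19, an amino acid transporter of gut and kidney, at chr5:1200710-1202210, went from 86.3%, 89.3% and 89.5% to 16.1%, 9.84% and 6.36%, the largest fall in this list. The clotting factor genes F7 and F10 fell from 84.8% to 46.8% and from 80.7% to 47.4%, the granule protease genes ELANE and AZU1 from 87.3% to 27.4% and from 94.0% to 43.7%, the mucin gene MUC2 from 88.8% to 46.5% and CYP2E1 from 85.2% to 31.7%. The promoter of TYMS fell from 17.1% ± 4.57 to 0.493% ± 0.547, but within 500 bp of the start the difference was −1.28 points with no call. The dopamine receptor gene DRD4 at chr11:636269-637769 rose from 9.26%, 12.4% and 8.20% to 36.96%, 34.7% and 29.4%. The other 4 that were higher, COL6A1, COL18A1, ZMYND11 and ACTG1, rose by 0.950 to 8.52 points, and each of these calls was lost when 1 library was left out.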

How the data were processed

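Genomic DNA of 6 libraries was bisulfite-converted and sequenced. Per the labels, the authors used Trim Galore for trimming and, for alignment to GRCh37, Bismark (version 0.9.0, while the methods text gives an earlier version) and Bowtie2, and removal of duplicate reads is not given in the sources used here. For each cytosine the deposited files give the counts of methylated and unmethylated calls, which were used here, and the percent of methylated calls, which was used only as a check. These are raw counts with no normalization. Positions are counted from 0 in the files and from 1 here.

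Calls were summed in 1-kb windows, and a window level is the share of methylated calls. Windows with under 10 calls in any library were left out. Depth varied by library, from 70329213 to 98004161 calls. The matched gap subtracts the mean level of interior windows with the same CpG number, with 60 or more pooled. Library means were compared by exact permutation tests, 2-Mb blocks with limma 3.58.1 (R 4.3.3), and windows and promoters with a quasi-binomial likelihood-ratio test whose dispersion was moderated with limma and kept at 1 or more, each adjusted by the Benjamini-Hochberg method over all autosomal features at 0.05. Genes are from GENCODE on GRCh37. Sequences were read from the GRCh37 genome. The scripts were tested on simulated data. Named ends are the 5 largest changes in each direction. Named windows are the 5 largest falls, rises and highest remaining levels among called windows with no overlap between libraries. Genes come from 4 lists, and those named have a call. Some items that these rules name are not reported here. The windows, the lists and the tests were chosen with earlier results of these data known. Alternatives to the minimum of calls, the matching, the scale, the distance, the promoter and the libraries are described in the closing section.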

Additional observations from a re-analysis of the deposited data

How the results depend on the processing

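The fall of the subtelomeric level kept its direction in every alternative run, and leaving out 1 library at a time gave −50.6 to −49.9 points. All p-values for library means sit at or above 0.1, so their directions and not their calls can be compared. The change of the matched gap (reset minus conventional) was −0.781 points, and −0.769 to −0.641 with 1 library left out, but +0.813 within 500 kb, +0.0454 within 1 Mb, +8.21 without matching and +0.0698 as a log2 ratio. Without matching the conventional gap was −3.59 points over all windows and −4.14, −3.84 and −3.01 points from 100 to 500, 500 to 1000 and 1000 to 2000 kb, and the change was +9.62 and +7.42 points in the last 2 classes. As a log2 ratio the change was −0.0175 in the first 100 kb, +0.105 from 500 to 1000 kb and +0.0487 from 1000 to 2000 kb. The first 100 kb had a change of −2.73 points with a minimum of 30 calls, from +3.92 in conventional to +1.19 in reset cells, and of −5.33 points with calls pooled, from +5.47 to +0.142. From 100 to 500 kb the change was −0.973 and −2.59 points with a minimum of 20 and 30 calls, −5.92 with calls pooled and −0.112 when GC content was matched as well. The cause of these changes was not tested.

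Ends with a higher gap in reset cells numbered 12 and 5 with a minimum of 20 and 30 calls, 9 with calls pooled and 40 without matching, in place of 19. Ends with a lower gap numbered 3 without matching and 14 as a log2 ratio, in place of 22. The shares over all blocks at these settings are not given here. At the start of chromosome 22 the gap changed by −3.16 points with a minimum of 30 calls and −1.48 with calls pooled, and that of chromosome 21 by −0.00529 and −23.8 points, and by −0.438 as a log2 ratio. That of chromosome 14 had −0.151 as a log2 ratio and +0.177 points, without a call, with a minimum of 30 calls, and those of chromosomes 1 and 16 had +0.0530 and +0.102. Without matching the starts of chromosomes 19, 1, 16 and 8 had +12.6, +12.2, +12.7 and +3.74 points. In every setting run the start of chromosome 3 fell. With a minimum of 30 calls, at which fewer windows were tested, 40262 subtelomeric windows were lower in reset cells. The number tested and the share over all windows at that minimum are not given here. Within 500 bp of the start, 445 of 1234 promoters were lower (36.1%, against 37.9% of all promoters). There TERT, KDM5A and PRMT2 turned to +2.32, +0.147 and +0.113 points without a call.

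Leaving out 1 library gave 67733 to 68972 lower and 443 to 481 higher windows, and 19 to 20 ends with a higher gap. It gave 794 to 820 lower promoters (63.3% to 65.5% of those tested) and 39 to 48 higher ones (3.11% to 3.83%). The set of windows tested changes when a library is left out, and its size is not given here. Shares over all autosomal features at these settings are not given either, so the counts cannot be read against them. Among listed promoters, 14 of 59 calls were lost without some library, among them those of ACTG1, COL18A1, COL6A1, EHMT1, FOXF2, FRG2, IRX4, KDM5A, MPG, SOX18, STK11, UTF1 and ZMYND11. With the replicate number as a block, 67246 of the 69842 windows were lower and 395 higher. Of 1252 promoters, 821 were lower (65.6%) and 41 higher (3.27%). The shares over all autosomal features with this block are not given here. Among the ends, 20 had a higher and 22 a lower gap, and the change of the matched gap was −0.781 points at an exact sign-flip p of 0.25. Same-numbered libraries of the 2 states deviated with correlations of 0.0361, −0.0528 and −0.00883 over 1376 blocks, and differently numbered ones with −0.0455 to 0.0508. These values show no pairing by replicate number and cannot exclude one, as libraries of a shared origin need not deviate alike. Windows with 10 calls resolve a level only coarsely, and calls from PCR-amplified fragments are not independent molecules.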
